A study of Mus musculus with 12 samples.

Results

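The protein disulfide isomerase (PDI) family was examined in mouse liver through 10 genes, P4hb, Pdia3, Pdia4, Pdia5, Pdia6, Txndc5, Txndc11, Tmx1, Erp29 and Erp44, taken by symbol from a transcript table that holds 24296 gene symbols. Values are FPKM, fragments scaled to transcript length and library size, and those of all transcripts of a gene were summed in each liver, which for the 10 genes meant 37 transcripts. All 10 genes were among the 13158 genes whose mean summed FPKM reached 0.5 and which were tested. RNA was sequenced from 12 livers of male C57/BL6N mice in 4 groups of 3, each liver from its own animal as far as the labels tell, and the age of the mice is not given in the sources used here. Control mice are labelled wild type, and what they received in place of CCl4 is not given. Mice of the model, silibinin and phloridzin groups all received carbon tetrachloride (CCl4), a hepatotoxin whose repeated injection scars the liver. It was diluted in olive oil and given into the peritoneum, 2 injections a week for 8 weeks. The dose of 5 mL/kg is the volume of that mixture and not of CCl4 alone. The drugs were added from week 5 while the injections went on. Silibinin is a flavonolignan of milk thistle, and phloridzin is a dihydrochalcone glucoside that blocks sodium-glucose cotransport; the phloridzin livers came from the highest of the doses in the study's methods, and that dose differed from the dose of silibinin. Depth in megafragments, recovered from the FPKM values, was 105.2, 108.4 and 109.6 in the control livers, 83.7, 101.5 and 100.1 in the model livers, 106.7, 110.9 and 110.1 with silibinin and 102.1, 104.7 and 98.5 with phloridzin. The library of model replicate 1 was the shallowest.

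Proteins that enter the endoplasmic reticulum (ER) for secretion are joined by disulfide bonds between cysteines, and PDI enzymes make, break and rearrange those bonds through thioredoxin-like domains. Hepatocytes secrete most plasma proteins and so use this machinery heavily, while the collagens deposited in a fibrotic liver also fold in the ER of the cells that make them. When unfolded proteins accumulate there, the unfolded protein response (UPR) raises transcription of chaperones and of several PDI genes.

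Taken as a sum, family RNA was higher in the model livers than in the others. The FPKM of the 10 genes added up to 810, 805 and 425 in the control livers, 1441, 1467 and 1031 in the model livers, 805, 691 and 705 with silibinin and 757, 597 and 669 with phloridzin. Each model liver was above all 9 others, and the low control value was that of replicate 3, where P4hb was almost missing. Without P4hb the sum was 396 ± 26.9 FPKM (SD, n = 3) in control, 777 ± 52.0 in model, 334 ± 18.1 in silibinin and 320 ± 49.7 in phloridzin livers. After division by median-ratio size factors, described with the next comparison, the sum of the 10 genes was 920, 910 and 519 in control and 1211, 1274 and 870 in model livers, so that model replicate 3 lay below 2 of the controls. Without P4hb the scaled sums were 420, 447 and 516 in control and 637, 726 and 622 in model livers and did not overlap. With silibinin they were 344, 303 and 343 and with phloridzin 329, 276 and 315, each below every control.

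**Figure D1:**
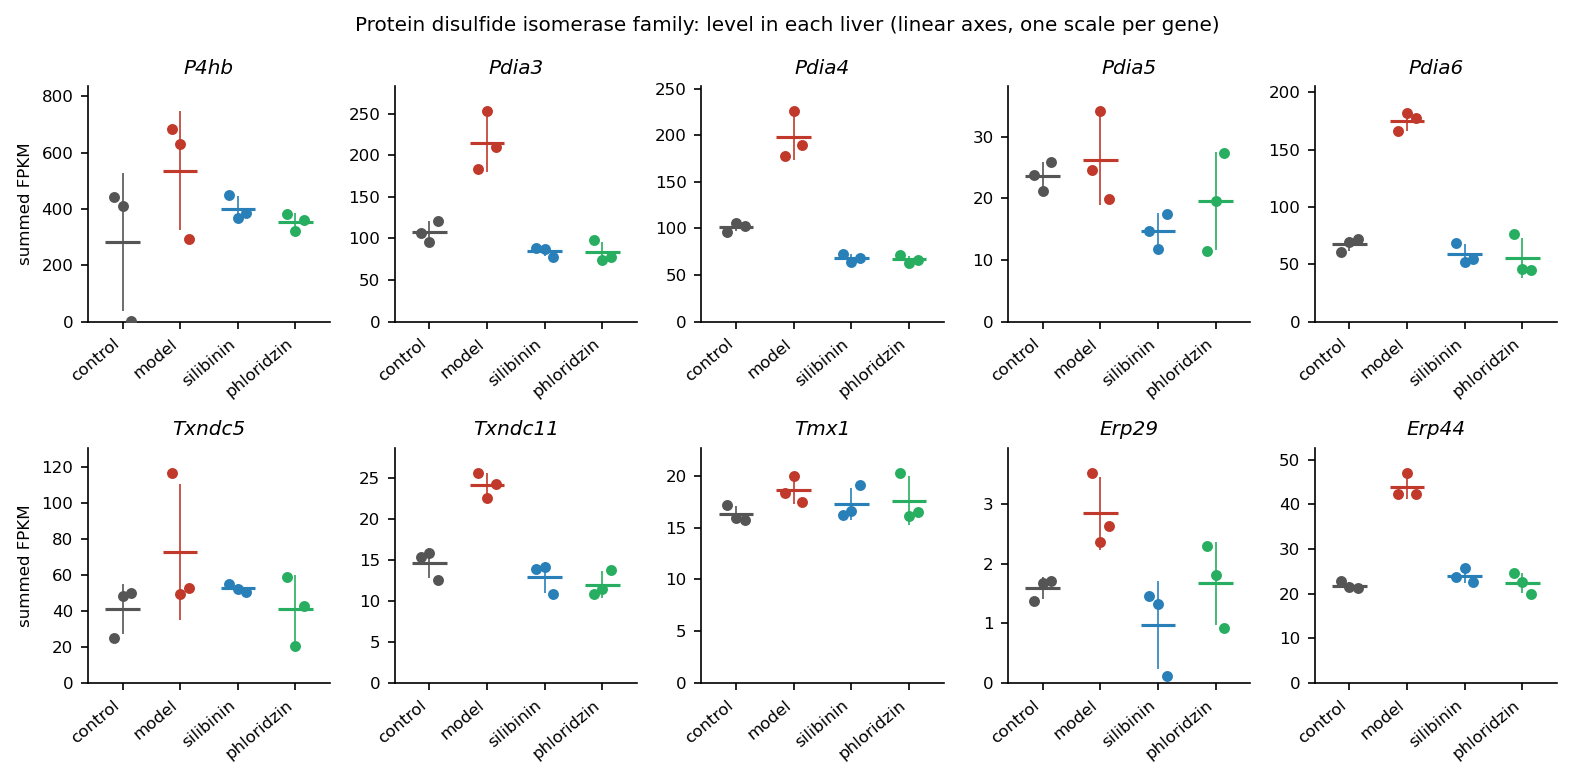
Summed FPKM of each of the 10 family genes in every liver (points), with the group mean (horizontal bar) and SD (vertical line), n = 3 per group; axes are linear from 0 and differ between genes. Pdia3, Pdia4, Pdia6, Txndc11, Erp29 and Erp44 were higher in every model liver than in any other liver, and the P4hb point at the bottom of the control column is 2.22 FPKM.

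The model and control groups were compared to see what CCl4 did to the family. At a Benjamini-Hochberg adjusted p under 0.05 in limma, 5 of the 10 genes were higher in the model, Pdia3, Pdia4, Pdia6, Txndc11 and Erp44, and none was lower, beside 31.1% of all genes tested that were higher and 3.80% that were lower by the same rule. With the further requirement of a log2 fold change over 1, which defines differential expression (DE) here, only Pdia6 was called, against 9.42% of all genes that were DE and higher and 1.08% that were DE and lower. Counted without a test, 7 of the 10 genes had all 3 model livers above all 3 controls, against 45.1% of all genes, and none had them all below, against 6.92%. The count of called genes was 2 without control replicate 1 (Erp44 joined), 2 without control replicate 3 (Pdia3 joined) and 3 without model replicate 1 (Pdia3 and Pdia4 joined). The median log2 fold change was 0.86 over the 10 genes and 0.34 over all genes. Dividing each liver by a median-ratio size factor, which was 0.820 to 0.885 in control and 1.151 to 1.190 in model livers, brought the median over all genes to 0.01 and that over the family to 0.41; Pdia3, Pdia4, Pdia6 and Erp44 then passed the adjusted p, beside 13.2% of all genes, and none was DE. The split of all DE genes moved with that scaling from 1240 higher and 142 lower to 526 higher and 453 lower. Livers here are bulk tissue, so that a change in the number of cells of a type and a change of RNA per cell cannot be told apart.

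Adding either drug to CCl4 was compared with CCl4 alone. With silibinin, 4 of the 10 genes were DE and lower, Pdia3, Pdia4, Pdia6 and Erp29, against 3.25% of all genes, and with Txndc11 and Erp44 6 were lower at the adjusted p alone, against 11.4%. With phloridzin, 3 were DE and lower, Pdia3, Pdia4 and Pdia6, against 2.92% of all genes, and with Txndc11 and Erp44 5 were lower at the adjusted p alone, against 10.4%. None of the 10 genes was higher with either drug by these rules, while 0.745% of all genes were DE and higher with silibinin and 0.600% with phloridzin, or 2.62% and 2.50% at the adjusted p alone. All 3 treated livers were below all 3 model livers for 7 genes with silibinin, against 27.8% of all genes, and for 6 with phloridzin, against 22.4%; none had them all above, against 8.91% and 8.21%. The median log2 fold change of the family was -0.85 with silibinin and -0.88 with phloridzin, beside -0.15 and -0.11 over all genes. Both drug comparisons use the same 3 model livers, as does the comparison of model with control. After median-ratio scaling 3 genes were DE with each drug, Pdia3, Pdia4 and Pdia6, beside 1.84% of all genes that were DE and lower with silibinin and 1.83% with phloridzin, and 5 passed the adjusted p with each, beside 6.50% of all genes with silibinin and 6.29% with phloridzin.

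**Figure D2:**
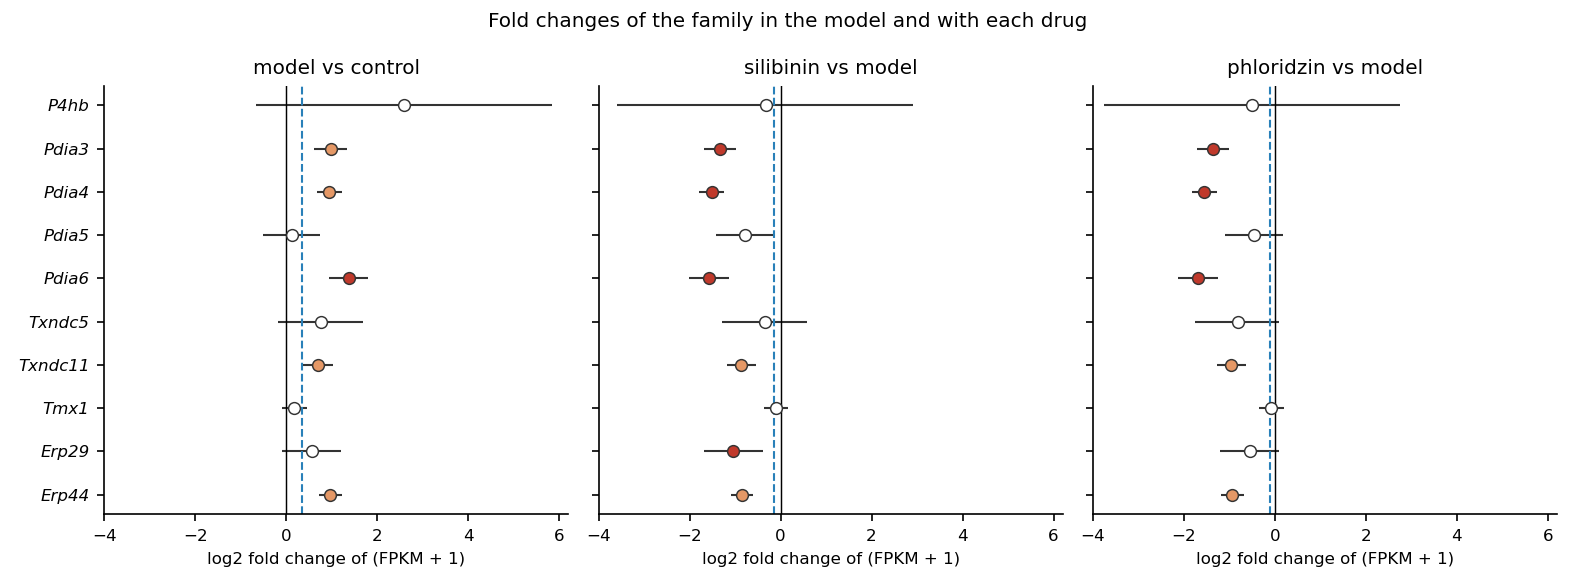
Log2 fold change of summed FPKM + 1 for each family gene (points) with its 95% interval (lines) in 3 comparisons; red points are DE, orange points pass the adjusted p alone, white points pass neither, and the dashed line is the median over all genes. Pdia6 is the red point at 1.37 in the model comparison, and Pdia3, Pdia4 and Pdia6 are red on the negative side with both drugs.

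Pdia6 encodes a PDI that binds the chaperone BiP and limits signalling by the UPR sensor IRE1. The gene (ENSMUSG00000020571) lies at chr12:17266545-17284770 on the plus strand (mm10), and its most abundant transcript has 13 exons. Its summed FPKM was 60.6, 69.8 and 71.8 in control, 166, 182 and 178 in model, 68.8, 52.2 and 54.9 in silibinin and 76.0, 46.2 and 44.6 in phloridzin livers. The 3 model livers stood apart above all 9 others, while the control, silibinin and phloridzin livers overlapped. Pdia6 rose in the model by a log2 fold change of 1.37 ± 0.20 (SE, limma with Benjamini-Hochberg adjusted p = 7.2e-04), which is 1.03 above the median gene. It was lower than in the model with silibinin (-1.57 ± 0.20, limma with Benjamini-Hochberg adjusted p = 7.3e-04) and with phloridzin (-1.68 ± 0.20, adjusted p = 5.0e-04), in 3 of 3 livers each. The rise became 0.92 after median-ratio scaling and then missed the fold cutoff.

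Because several UPR targets are read through a known promoter element, the promoters of the family were searched on both strands for the ER stress response element (ERSE), CCAAT and CCACG with 9 bases of any kind between, for the related ERSE-II, ATTGG and CCACG with 1 base between, and for the core ACGTGG, in the 300 bases from 250 before to 50 after each RefSeq start (GRCm38.p6). Entries matched 9 of the 10 genes, with 13 promoters in all; Erp29 had none. The ERSE was present in Pdia6 only among these 9, 98 bases before the start, and in 0.137% of all 27025 genes with an entry. No family promoter held the ERSE-II, which 0.0444% of all genes did. The core ACGTGG was found in P4hb, Pdia5, Pdia6, Txndc5 and Txndc11, 5 of the 9 genes, and in 9.40% of all genes with an entry. For Txndc5 it lay only in the window of a RefSeq start 576 bases downstream of the start of its most abundant transcript. The window of the RefSeq start 6 bases from that transcript's start held none. A match describes letters in a window and is no evidence of binding, and its absence says nothing of a factor acting from elsewhere. Pdia3 and Erp44 passed the adjusted p in the model and held none of these motifs. P4hb, Pdia5 and Txndc5 held the core and passed it in no comparison. The promoters of Pdia6 (chr12:17266339-17266638, plus strand), of Pdia4 (chr6:47813463-47813762, minus strand), which moved with it, and of Tmx1 (chr12:70452904-70453203, plus strand), which did not pass any test, are printed as examples. They run 5′ to 3′, with the ERSE and, nearer to the start, the ACGTGG core in capitals.
Pdia6: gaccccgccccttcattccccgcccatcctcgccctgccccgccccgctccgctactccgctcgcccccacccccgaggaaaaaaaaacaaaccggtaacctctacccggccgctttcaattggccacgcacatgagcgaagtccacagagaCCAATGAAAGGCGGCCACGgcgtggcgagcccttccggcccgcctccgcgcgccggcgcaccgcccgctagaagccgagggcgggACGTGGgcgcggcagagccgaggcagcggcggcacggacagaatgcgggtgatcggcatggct
Pdia4: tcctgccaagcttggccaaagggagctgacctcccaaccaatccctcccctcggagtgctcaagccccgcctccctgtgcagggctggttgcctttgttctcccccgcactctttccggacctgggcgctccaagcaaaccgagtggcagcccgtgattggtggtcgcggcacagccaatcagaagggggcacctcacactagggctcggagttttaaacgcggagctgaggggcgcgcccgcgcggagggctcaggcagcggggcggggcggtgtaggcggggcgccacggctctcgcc
Tmx1: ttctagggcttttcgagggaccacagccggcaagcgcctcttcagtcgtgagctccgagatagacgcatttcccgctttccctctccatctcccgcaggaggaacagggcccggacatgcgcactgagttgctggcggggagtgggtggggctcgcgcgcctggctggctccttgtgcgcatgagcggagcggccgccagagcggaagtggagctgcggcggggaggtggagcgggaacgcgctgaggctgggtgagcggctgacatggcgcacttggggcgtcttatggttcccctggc
The Pdia4 and Tmx1 promoters have no capitals since none of the 3 motifs occurs in them. The RefSeq start of Pdia4 lies 82 bases upstream of the start of its most abundant transcript in the table, and that window ends before the transcript begins, while the starts of Pdia6 and Tmx1 lie 44 and 59 bases downstream of theirs; the windows are therefore not placed alike, and the bases next to the Pdia4 start in the table were not searched.

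Pdia4 encodes an ER-resident PDI that works in chaperone complexes with BiP and GRP94. The gene (ENSMUSG00000025823, chr6:47796141-47813430, minus strand) was at 96.1, 106 and 103 FPKM in control, 178, 226 and 190 in model, 72.4, 64.5 and 68.4 in silibinin and 71.1, 62.8 and 66.0 in phloridzin livers. Its groups did not overlap between model and control, and all 6 treated livers were also below all 3 controls. Pdia4 passed the adjusted p in the model with a log2 fold change of 0.95 ± 0.12 (limma with Benjamini-Hochberg adjusted p = 4.1e-04), or 0.61 above the median gene. The fall against the model was -1.51 ± 0.12 with silibinin (limma with Benjamini-Hochberg adjusted p = 5.4e-05) and -1.55 ± 0.12 with phloridzin (adjusted p = 4.3e-05). It was the single family gene that passed against control under drug, lower by -0.56 ± 0.12 with silibinin (limma with Benjamini-Hochberg adjusted p = 0.029) and by -0.60 ± 0.12 with phloridzin (adjusted p = 0.018). Both of these calls depend on the fit. The silibinin call was lost with the replicate block and with the most abundant transcript, where the value stayed at -0.56. It was also lost without any 1 of the 6 livers (-0.60, -0.53 and -0.55 without control replicates 1, 2 and 3, and -0.60, -0.52 and -0.56 without silibinin replicates 1, 2 and 3). The phloridzin call was lost in the fit of the 2 compared groups, where the value stayed at -0.60. It was also lost without control replicates 2 and 3 (-0.57 and -0.59) and without phloridzin replicate 2 (-0.56). After median-ratio scaling both calls held, at -0.79 with silibinin and -0.87 with phloridzin.

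Pdia3 encodes the isomerase that partners the lectin chaperones calnexin and calreticulin on glycoproteins, and it is also part of the loading complex of MHC class I. The gene (ENSMUSG00000027248, chr2:121413775-121438687, plus strand) was at 107, 95.9 and 121 FPKM in control, 183, 253 and 210 in model, 88.8, 86.9 and 77.8 in silibinin and 97.9, 74.4 and 77.2 in phloridzin livers. Every model liver exceeded every other liver, and phloridzin overlapped with control. Its log2 fold change was 0.98 ± 0.16 in the model (limma with Benjamini-Hochberg adjusted p = 0.0015), just under the cutoff of 1, and 0.64 above the median gene. It fell by -1.33 ± 0.16 with silibinin (limma with Benjamini-Hochberg adjusted p = 6.2e-04) and by -1.36 ± 0.16 with phloridzin (adjusted p = 5.5e-04).

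P4hb encodes the founding PDI enzyme, which is also the beta subunit of collagen prolyl 4-hydroxylase and the partner of the lipid transfer protein MTTP. The gene (ENSMUSG00000025130, chr11:120560298-120573253, minus strand) has 1 transcript in the table, of 11 exons, and no annotated gene overlaps it. Its FPKM was 441, 409 and 2.22 in control, 683, 631 and 294 in model, 450, 366 and 384 in silibinin and 383, 321 and 359 in phloridzin livers. The value of 2.22 was 0.523% of the mean of the other control livers, and corresponded to 697 fragments against 132585 and 126990. Model and control livers overlapped, and so did the model and drug groups. The log2 fold change in the model was 2.59 ± 1.47 (limma with Benjamini-Hochberg adjusted p = 0.19), and without control replicate 3 it was 0.24. Among 397 genes with a median of at least 100 FPKM, 8 had a liver below 2% of their median, and P4hb was the 1 gene for which control replicate 3 alone was such a liver; these limits were set after the values were seen. An intronic transcript of the NONCODE catalogue on the same strand, described below with that of Pdia3, was 1.83 FPKM in control replicate 3 and 2.38 and 1.86 in the other controls. Whether P4hb fragments of that liver lie in transcripts assembled without a position was not tested.

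Txndc5 encodes a PDI that acts with the oxidase peroxiredoxin 4 and takes part in collagen folding in fibroblasts. It was at 25.2, 48.3 and 50 FPKM in control, 117, 49.6 and 52.6 in model, 55.0, 52.5 and 50.5 in silibinin and 59.2, 20.8 and 43.1 in phloridzin livers. Model replicate 1 was high and the other model livers overlapped with control, silibinin and phloridzin livers. No comparison passed, and the log2 fold change in the model was 0.76 ± 0.42 (limma with Benjamini-Hochberg adjusted p = 0.18). Pdia5, a PDI that acts on the UPR sensor ATF6, had 23.7, 21.2 and 25.8 FPKM in control, 24.6, 34.1 and 19.9 in model, 14.6, 11.7 and 17.5 in silibinin and 11.5, 19.6 and 27.4 in phloridzin livers. All silibinin livers lay below every control and model liver, yet the log2 difference from the model, -0.79 ± 0.29, did not pass (limma with Benjamini-Hochberg adjusted p = 0.095), and the phloridzin livers, from 11.5 to 27.4, overlapped with each other group. In the model its log2 fold change was 0.12, or -0.22 relative to the median gene, and it was -0.31 after median-ratio scaling. Txndc11, a thioredoxin-domain protein, had 15.4, 15.8 and 12.5 FPKM in control, 25.6, 22.5 and 24.2 in model, 13.9, 14.2 and 10.8 in silibinin and 10.8, 11.4 and 13.8 in phloridzin livers. The model livers were above all 9 others. Its log2 fold change was 0.69 ± 0.15 in the model (limma with Benjamini-Hochberg adjusted p = 0.005), -0.86 ± 0.15 with silibinin (adjusted p = 0.0043) and -0.96 ± 0.15 with phloridzin (adjusted p = 0.0025), and the first of these was 0.27 and no longer passed after median-ratio scaling.

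Erp44 encodes a PDI-like protein that cycles between ER and Golgi and retrieves clients such as the oxidase ERO1. The gene (ENSMUSG00000028343, chr4:48193323-48279558, minus strand) was at 22.8, 21.5 and 21.2 FPKM in control, 42.3, 47.1 and 42.3 in model, 23.8, 25.7 and 22.6 in silibinin and 24.6, 22.7 and 20 in phloridzin livers. The model livers stood above all others by a wide margin, and control and drug livers overlapped. The log2 fold change was 0.97 ± 0.11 in the model (limma with Benjamini-Hochberg adjusted p = 2.3e-04), -0.84 ± 0.11 with silibinin (adjusted p = 9.5e-04) and -0.94 ± 0.11 with phloridzin (adjusted p = 5.1e-04). With a pseudocount of 0.1 in place of 1 it was 1.00 in the model and past the cutoff.

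Tmx1 is a transmembrane PDI that prefers membrane-bound clients. Its FPKM was 17.2, 15.9 and 15.7 in control, 18.3, 20 and 17.5 in model, 16.2, 16.6 and 19.1 in silibinin and 20.3, 16.1 and 16.5 in phloridzin livers. Model and control livers did not overlap, but by little, and the model overlapped with both drugs. Its log2 fold change in the model was 0.18 (95% interval -0.09 to 0.45), which is -0.16 relative to the median gene, and -0.24 after median-ratio scaling. Erp29, a PDI-fold chaperone without the usual active-site cysteines, was the lowest of the 10 genes at 1.37, 1.68 and 1.71 FPKM in control, 3.52, 2.36 and 2.63 in model, 1.45, 1.33 and 0.120 in silibinin and 2.29, 1.80 and 0.914 in phloridzin livers. Each model liver was above every other liver, and silibinin replicate 3, at 60 fragments, was far below the rest. Silibinin against model gave -1.04 ± 0.29 (limma with Benjamini-Hochberg adjusted p = 0.04). That call was lost without silibinin replicate 3 (-0.67) and without any 1 of the model livers (-0.91, -1.13 and -1.07 for replicates 1, 2 and 3). It was also lost after median-ratio scaling (-0.89), with a pseudocount of 0.1 (-1.88), with the most abundant transcript (-0.74) and with voom on recovered fragments (-1.93). With no filter on low values and in the fit of the 2 compared groups it was lost too, while the value stayed at -1.04. Erp29 (chr5:121428590-121452506, minus strand) overlaps Naa25 and Tmem116 on the other strand, and since the strand setting of the counting is not given, reads of these genes cannot be told apart there. Whether transcripts assembled without a position hold fragments of Erp29 was not tested, so its level is that of the listed transcripts.

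Ranked by mean FPKM, a scale that corrects for length, P4hb, Pdia3, Pdia4 and Pdia6 were the 4 highest in each group, in that order, and Txndc5 came next. In control livers Pdia3 (108 ± 12.8) and Pdia4 (102 ± 4.92) did not differ beyond their spread, nor did P4hb (284 ± 245) and Pdia3, whereas Pdia4 and Pdia6 (67.4 ± 5.96) did not overlap. For P4hb this rests on control replicate 3 (2.22 FPKM), since the other controls, at 441 and 409, were above every control value of Pdia3. In model livers Pdia3 (215 ± 35.1), Pdia4 (198 ± 24.6) and Pdia6 (175 ± 8.53) overlapped from each to the next. With silibinin Pdia4 (68.4 ± 3.97) overlapped with Pdia6 (58.6 ± 8.87) and Pdia6 with Txndc5 (52.7 ± 2.24), as did Tmx1 with Pdia5 and Pdia5 with Txndc11, and the neighbours from Pdia4 to Tmx1 overlapped with phloridzin, each with the next. By its listed transcripts Erp29 was below every other gene in each group.

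Phloridzin and silibinin were then compared with each other. None of the 10 genes passed, at the adjusted p or at an unadjusted p under 0.05 in limma, and 0 were called by voom on recovered fragments; of all genes tested, 1 was DE and higher (0.00760%) and 2 were DE and lower (0.0152%), the same genes that passed the adjusted p. For none of the 10 did the 6 livers separate, higher or lower, while they did for 5.19% and 2.80% of all genes. The log2 difference, phloridzin minus silibinin, was -0.03 for Pdia3 (95% interval -0.39 to 0.33), -0.04 for Pdia4 (-0.31 to 0.23) and -0.11 for Pdia6 (-0.55 to 0.33). It was -0.10 for Txndc11 (-0.42 to 0.22), -0.10 for Erp44 (-0.34 to 0.15) and 0.02 for Tmx1 (-0.25 to 0.29). The intervals were wider for Pdia5 (0.33, -0.30 to 0.96), Txndc5 (-0.47, -1.40 to 0.45), Erp29 (0.49, -0.16 to 1.14) and P4hb (-0.17, -3.43 to 3.08). The variance of each gene is pooled over all 12 livers, for P4hb including control replicate 3, which is in neither drug group; in a fit of the drug groups alone its interval was -0.57 to 0.23, and that of Pdia6 was -0.69 to 0.47. A p that misses the threshold does not show that the drugs act alike, and the doses differed.

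Livers under CCl4 and a drug were last compared with control livers. With silibinin 1 of the 10 genes passed the adjusted p, Pdia4, which was lower, against 0.433% of all genes, and with phloridzin also 1, Pdia4, against 0.479%. Each count fell to 0 in some of the alternatives, as given for Pdia4 above: with silibinin also without any 1 of the 6 livers (-0.52 to -0.60), and with phloridzin without control replicate 2 or 3 (-0.57 and -0.59) or phloridzin replicate 2 (-0.56). None was higher, while 4.59% of all genes were with silibinin and 7.51% with phloridzin. None was DE with limma in either comparison or with voom on recovered fragments. With silibinin 1.74% of all genes were DE and higher and 0.243% DE and lower, and with phloridzin 2.74% and 0.289%. At an unadjusted p under 0.05 in limma there were 2 family genes in each comparison. That count was not set against the share of all genes, so it cannot be weighed. The median log2 fold change of the family was -0.18 with silibinin and -0.16 with phloridzin, beside 0.16 and 0.18 over all genes. All 3 silibinin livers were below all controls for 3 genes, Pdia3, Pdia4 and Pdia5, against 4.01% of all genes, and above them for 1, Txndc5, against 26.4%. All 3 phloridzin livers were below for 1, Pdia4, against 2.99%, and above for none, against 26.8%. Relative to the median gene, Pdia4 was at -0.72 and -0.78, and Pdia3 at -0.51 and -0.56. After median-ratio scaling the medians over the family were -0.41 and -0.42. Pdia4 then passed with both drugs (-0.79 and -0.87), and Pdia3 also with phloridzin (-0.64). Of all genes, 1.18% were then lower at the adjusted p with silibinin and 1.67% with phloridzin.

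**Figure D3:**
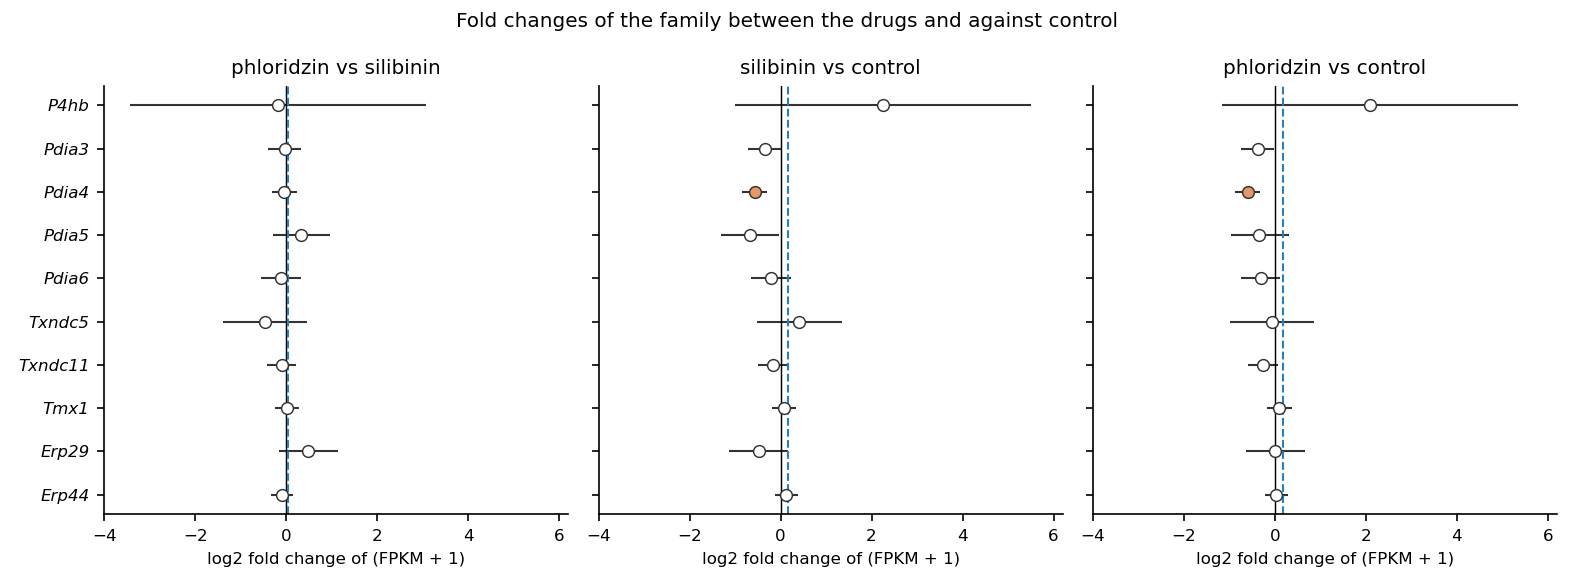
Log2 fold change of summed FPKM + 1 for each family gene (points) with its 95% interval (lines) between the drugs and for each drug against control; orange points pass the adjusted p, white points do not, and the dashed line is the median over all genes. Pdia4 is the orange point at -0.56 with silibinin and -0.60 with phloridzin, and the P4hb intervals, from a variance pooled over all 12 livers with control replicate 3 among them, are the widest.

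Transcripts of the family were then tested one by one. All 5 Pdia6 transcripts were DE in the model and with both drugs, beside 4.78%, 2.03% and 1.95% of all transcripts tested in the 3 comparisons. A short processed transcript of Pdia6 (ENSMUST00000163000) went from 0.45 ± 0.18 FPKM in control to 4.8 ± 0.894 in the model and was 0.278 ± 0.239 with silibinin and 0.483 ± 0.446 with phloridzin, while the most abundant one (ENSMUST00000057288), with 90.0% of the sum, had 62.5 ± 5.26, 151 ± 7.48, 55.8 ± 8.53 and 51.8 ± 17.9. Within the gene these transcripts did not differ from each other past the threshold in limma's transcript test. The only family transcript that did so was in Erp44, where a processed transcript (ENSMUST00000148947) was at 0.497 ± 0.144 in control, 3.31 ± 0.961 in model, 0.89 ± 0.118 in silibinin and 0.853 ± 0.161 in phloridzin livers. Its rise in the model exceeded that of the other Erp44 transcripts by 0.66 on the log2 scale (limma's within-gene test with Benjamini-Hochberg adjusted p = 0.047), a call made for 306 of 20929 transcripts. In Txndc11, whose sum passed in the model, the most abundant transcript, with 57.4% of the sum, had a log2 fold change of 0.32 and did not pass, while another protein-coding one (ENSMUST00000118679) was DE in the model (1.05) and with phloridzin (-1.07). In Txndc5, whose sum did not pass, a retained-intron transcript (ENSMUST00000160046) was DE in the model, from 3.34 ± 3.01 FPKM in control to 11.8 ± 4.01 (1.74, limma over all transcripts with Benjamini-Hochberg adjusted p = 0.038).

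Intronic transcripts of the NONCODE catalogue were tested in P4hb, Pdia3 and Txndc11. A NONCODE transcript inside a P4hb intron (chr11:120569223-120569821, minus strand) had 2.38, 1.86 and 1.83 FPKM in control, 7.48, 5.45 and 6.17 in model, 1.5, 1.6 and 0.85 in silibinin and 1.75, 0.86 and 1.42 in phloridzin livers. Its model livers were above all others, unlike those of the P4hb mRNA, and its level was 2.43 times that of control on the fitted scale (limma over 50485 transcripts with Benjamini-Hochberg adjusted p = 0.004), with log2 fold changes of -1.68 ± 0.19 with silibinin (adjusted p = 0.0017) and -1.66 ± 0.19 with phloridzin (adjusted p = 0.002). The one inside a Pdia3 intron (chr2:121415023-121419443, plus strand) had 1.51, 1.7 and 1.57 FPKM in control, 6.29, 7.43 and 5.94 in model, 1.17, 1.35 and 0.87 in silibinin and 1.25, 0.75 and 1.18 in phloridzin livers. It was DE as well, by 1.54 ± 0.15 in the model (limma with Benjamini-Hochberg adjusted p = 4.7e-04), -1.83 ± 0.15 with silibinin (adjusted p = 2.3e-04) and -1.88 ± 0.15 with phloridzin (adjusted p = 2.2e-04). The mRNA of Pdia3 passed in the same 3 comparisons and that of P4hb in none. The intronic transcript of Txndc11 averaged 1.22 FPKM in control, 2.45 in model, 0.543 in silibinin and 1.10 in phloridzin livers and did not pass (0.54, -1.07 and -0.67). None of the 3 shares a base with an exon of the most abundant transcript of its gene, and whether they are RNAs of their own or unspliced RNA of the gene was not tested.

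**Figure D4:**
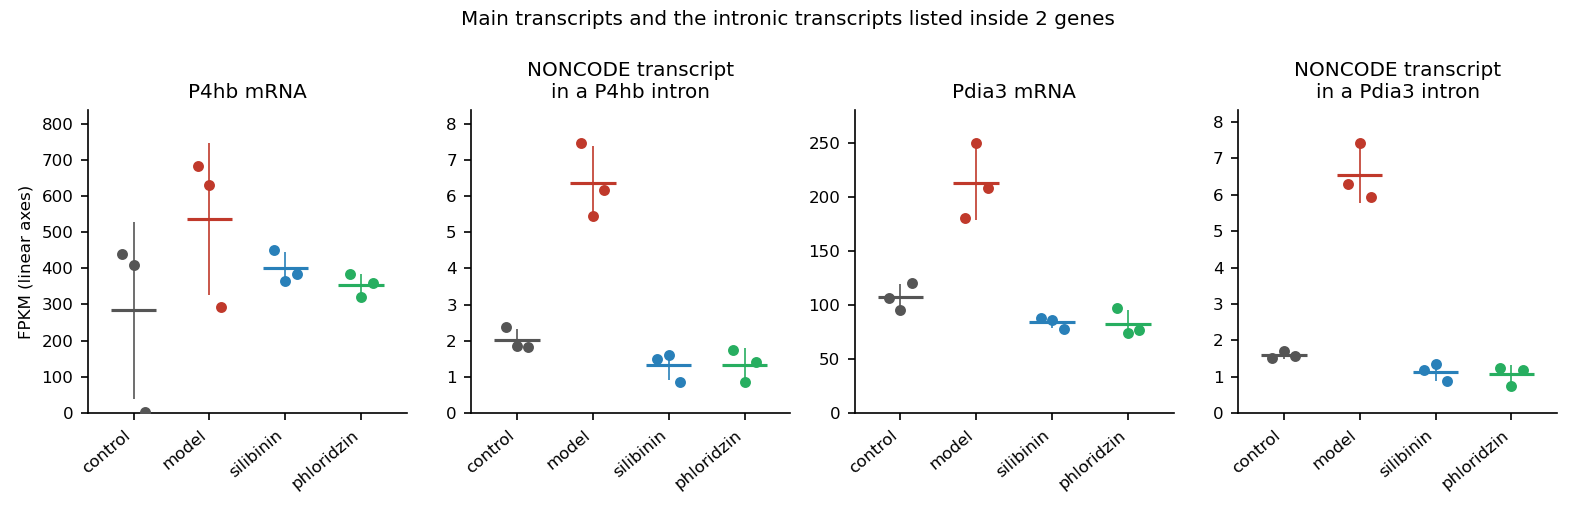
FPKM of the main P4hb and Pdia3 transcripts and of the NONCODE transcripts listed within their introns in every liver (points), with the group mean (horizontal bar) and SD (vertical line), n = 3; axes are linear from 0. The P4hb mRNA of control replicate 3 is at 2.22 while its intronic transcript, at 1.83, lies with the other controls.

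Other genes of ER folding, from lists of ER pathways, were set beside the family. For this list and those below, 31.1% of all genes were higher in the model at the adjusted p. With silibinin 11.4% of all genes were lower than in the model, and with phloridzin 10.4%. After median-ratio scaling these 3 shares were 13.2%, 6.50% and 6.29%. Of 15 ER chaperones, 11 were higher in the model at the adjusted p and none lower, with a median log2 fold change of 1.70; 11 were lower with silibinin and 9 with phloridzin, with medians of -1.74 and -1.63. The chaperone BiP (Hspa5) had 144 FPKM in control, 510 in model, 78.5 in silibinin and 78.8 in phloridzin livers, with a log2 fold change of 1.83 in the model (limma with Benjamini-Hochberg adjusted p = 1.0e-04). Creld2, a secreted UPR target, had 12.1, 61.3, 4.12 and 5.31 FPKM, and was DE in the model (2.28) and with both drugs (-3.59 and -3.29). Hyou1, an exchange factor for BiP, was at 8.56, 43.1, 8.91 and 6.86 FPKM. Fkbp11, a prolyl isomerase, rose from 5.57 to 33.7 and was 4.95 and 5.24 with the drugs. Manf, a secreted cofactor of BiP, went from 38.0 to 134 and was 19.4 and 18.9, and Sdf2l1, a chaperone partner of the same cycle, went from 19.9 to 65.8 and was 10.4 and 8.51. After median-ratio scaling 10 chaperones were higher and 1 lower in the model, with a median of 1.26, and 9 were lower with each drug. Serpinh1, the collagen chaperone, was higher in the model (1.72) but was not lower with silibinin (-0.47) or phloridzin (0.11) past the test, and was above control with both drugs (1.25 and 1.83), though not with silibinin after scaling (1.09). Against control 4 chaperones were lower at the adjusted p with silibinin and with phloridzin, Hspa5 (-0.87 and -0.85), Creld2 (-1.31 and -1.01), Dnajc3 (-0.52 and -0.59) and Sdf2l1 (-0.88 and -1.13), and after scaling 7 and 8 were.

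Of 11 UPR sensors and transcription factors, 9 were higher and 1 was lower in the model, with a median of 1.27, and 9 were lower and 1 higher with each drug (medians -0.99 and -1.27). Ddit3, the stress factor CHOP, had 0.988 FPKM in control, 25.9 in model, 1.16 in silibinin and 1.39 in phloridzin livers. Trib3, its target, had 5.27, 60.3, 4.23 and 4.98 FPKM. The sensors Eif2ak3 and Atf6, the factor Atf4 and the phosphatase subunit Ppp1r15a were DE in the model too (1.45, 1.27, 1.33 and 1.78). After median-ratio scaling 8 genes of this list were higher in the model (median 0.94), and 4 were DE and higher, where 8 were before. Atf6 (0.98) then passed the adjusted p alone, and Atf4 (0.94) no longer passed it. With silibinin 6 genes of the list were lower after scaling, and with phloridzin 9. Creb3l3, a hepatocyte factor, was the gene that went the other way, from 108 to 67.9 FPKM. Of 11 genes of ER-associated degradation, 9 were higher in the model (median 0.93) and 9 lower with each drug (medians -0.98 and -1.15). Syvn1, the ubiquitin ligase HRD1, went from 5.44 to 42.9 FPKM and was 5.32 and 4.91 with the drugs. Derl3, a channel component, and Sel1l, the partner of HRD1, were DE in all 3 comparisons (2.09, -2.36 and -2.48, and 1.10, -1.28 and -1.46), as were the mannosidase-like Edem2 and Edem3 (1.13, -1.22 and -1.20, and 1.03, -1.08 and -1.29). After median-ratio scaling 6 genes of this list were higher in the model (median 0.49) and 7 and 8 lower with the drugs; Syvn1 and Derl3 stayed DE in the model, and Sel1l (0.66), Edem2 (0.70) and Edem3 (0.62) passed the adjusted p alone, as did Edem3 with silibinin (-0.88).

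The ERSE was found in the promoters of 4 of 12 chaperones with an entry, Creld2, Dnajc3, Hsp90b1 and Hspa5, of 2 of 9 degradation genes, Derl3 and Syvn1, of 2 of 8 glycoprotein folding partners of Pdia3, Calr and Canx, and of none of 10 UPR sensors and factors. None of the other lists held it.

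Partners of the single enzymes were read next. Ero1l, the oxidase that recharges PDI, went from 6.76 FPKM in control to 17.1 in model and to 6.91 and 7.19 with silibinin and phloridzin, and was DE in all 3 comparisons (1.23, -1.20 and -1.15). It was the 1 DE gene among 13 oxidative folding enzymes in each of them, and 3 were higher in the model at the adjusted p, with a median of 0.37. After median-ratio scaling Ero1l was DE in none of the 3 (0.82, -0.99 and -0.97, each past the adjusted p), and in the model 1 gene of the list was higher and 2 were lower, of which Qsox1 was DE, with a median of -0.01. P4ha1, an alpha subunit that pairs with P4hb in collagen hydroxylation, had 2.89 FPKM in control, 8.18 in model, 3.6 in silibinin and 4.61 in phloridzin livers, with a log2 fold change of 1.24 in the model (limma with Benjamini-Hochberg adjusted p = 8.6e-04), which scaling brought to 0.87 and under the cutoff. The lectin calreticulin (Calr), a partner of Pdia3, had 88.0 FPKM in control, 172 in model, 25.8 in silibinin and 30.0 in phloridzin livers, and was DE with both drugs (-2.71 and -2.50). It was also below control with silibinin (-1.73) and phloridzin (-1.52). Mogs, which trims glycans ahead of the calnexin cycle, was DE with both drugs (-1.06 and -1.12). After scaling Mogs was not DE (-0.85 and -0.94), Calr still was, and none of the 8 genes of this list was higher in the model, where 3 were before. Kdelr2, a receptor that returns ER proteins from the Golgi, had a log2 fold change of 1.00 in the model, -1.12 with silibinin and -1.11 with phloridzin; with the drugs it was -0.91 and -0.93 after scaling, past the adjusted p but not DE.

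Relatives of the 10 genes were compared in the same way. Of 8 further PDI family genes tested, 3 were higher in the model, with a median of 0.42, beside 31.1% and a median of 0.34 over all genes. With each drug 1 was lower, Dnajc10, with medians of -0.03 and -0.01, beside -0.15 and -0.11 over all genes. Dnajc10, a reductase that helps degradation, had 12.7 FPKM in control, 32.8 in model, 16.8 in silibinin and 18.1 in phloridzin livers, and was DE in the model (limma with Benjamini-Hochberg adjusted p = 9.3e-04). After median-ratio scaling it was 0.87 in the model and not DE, and 1 gene of the list was higher and 1, Txndc15, lower, with a median of 0.14. Among 13 thiol oxidoreductases of cytosol and mitochondria, 3 were higher in the model and none was DE there, with a median of 0.13, which is below that of all genes; after median-ratio scaling it was -0.31. With silibinin 2 of them and with phloridzin 1 were lower at the adjusted p.

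**Figure D5:**
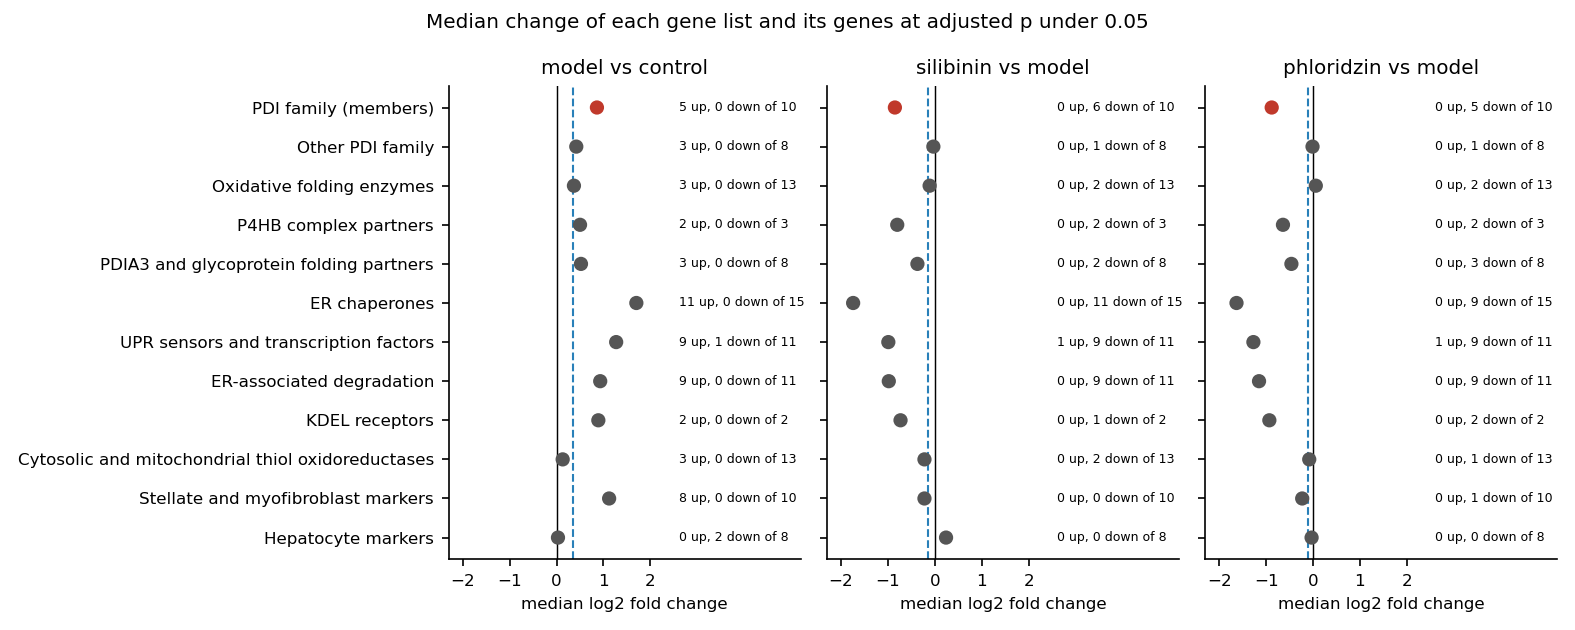
Median log2 fold change of the family (red) and of other gene lists (grey) in 3 comparisons, with the number of genes higher (up) and lower (down) at the adjusted p of those tested; the dashed line is the median over all genes. ER chaperones have the largest medians of the lists shown, 1.70, -1.74 and -1.63.

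Markers of cell types were read to check the tissue and to see what else moved. Hepatocyte markers were abundant in all livers, with Alb the highest at a mean of 18384 FPKM, and their sum per liver was 17562 to 23104 in control and 16424 to 27974 in model livers. Without Alb the mean sum was 6906 FPKM in control and 3923 in model livers. Of 8 hepatocyte markers 2 were lower in the model, with a median of 0.03, and Cyp2e1, the enzyme that activates CCl4, went from 2812 to 504 FPKM. Stellate and myofibroblast markers summed to 90.8, 81.3 and 94.0 FPKM in control, 249, 242 and 277 in model, 249, 283 and 139 in silibinin and 330, 199 and 173 in phloridzin livers, with Dcn the most abundant. Of 10 of these 8 were higher in the model, while with silibinin none (limma, with 1 at an unadjusted p under 0.05) and with phloridzin 1, Lrat, was lower than in the model. Col1a1 was 1.4 ± 0.321 FPKM (SD) in control, 48.5 ± 12.7 in model, 39.0 ± 19.7 in silibinin and 41.4 ± 37.9 in phloridzin livers. Col3a1, Col1a2, Lrat and Tagln were DE in the model as well (3.75, 1.52, 1.47 and 1.19). After median-ratio scaling 5 stellate markers were higher in the model (median 0.82), Tagln was no longer DE (0.87), and the median of the hepatocyte markers was -0.41, with 2 lower. The part of these cells in the changes of the family was not tested.

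Macrophage markers summed to 97.1, 163 and 119 FPKM in control and 179, 292 and 231 in model livers, with Cd5l the most abundant. Of these markers 3 of 8 were higher in the model, beside 31.1% of all genes, and Gpnmb went from 0.18 to 31.5. With silibinin the sums were 196, 241 and 226 and with phloridzin 360, 342 and 202. None of the 7 endothelial markers passed in the model (limma, with 1 at an unadjusted p under 0.05), where their sum was 68.7 to 87.7 FPKM against 58.7 to 73.2 in control, and Clec4g led them. Among 6 B and plasma cell markers tested, cells rich in PDI, 3 were higher in the model, Jchain from 1.43 to 7.8 FPKM, while the sum over the list was 73.2 in control and 70.5 in model livers, or 3.30 and 12.9 without Sdc1, the most abundant of them; Tnfrsf17 was 0 in control and 0.0797 in model livers. Of 3 cholangiocyte markers tested 2 were higher in the model, with Spp1 the most abundant (11.4 to 45.9 FPKM), and Cftr was near 0 at 0.0134 and 0.0637. T and NK cell markers stayed low, at sums of 2.07 FPKM in control and 4.35 in model livers with Nkg7 the most abundant, and none of 3 passed (limma, with 1 at an unadjusted p under 0.05). Erythroid markers summed to 1070 FPKM in control, 726 in model, 448 in silibinin and 609 in phloridzin livers, led by Hbb-bs; none of 5 passed in the model (limma, with 1 at an unadjusted p under 0.05), and Alas2 was higher with silibinin than in the model. After median-ratio scaling 2 erythroid markers were lower in the model, Alas2 (-0.74) and Hba-a1 (-1.09, DE), and of the markers higher there 1 of 8 macrophage, 1 of 6 B and plasma cell and 1 of 3 cholangiocyte markers remained. Pancreatic acinar markers were at or near 0, with Cpa1 listed at 0 in every liver and Cela2a, the most abundant, at a mean of 0.313. The part of these cells in the family's changes was not tested.

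Genes outside the family with the most similar pattern were looked for by the root mean square difference of their log2 profile over the 12 livers from the median family profile, among 6050 genes of at least 5 FPKM. That median profile, relative to the control mean, was 0.81, 0.84 and 0.80 in model, -0.03, -0.09 and -0.34 in silibinin and 0.17, -0.29 and -0.09 in phloridzin livers. Profiles here are of FPKM without median-ratio scaling, after which the median log2 fold change of the family in the model was 0.41. The search was not repeated on scaled values, so the part of the shift over all genes in the likeness was not tested. The 8 nearest genes were Usp39 (0.089), Eif3b (0.10), Tbrg1 (0.10), Trmt6 (0.104), Arcn1 (0.105), Farsa (0.107), Znrd1 (0.107) and Dpagt1 (0.116). Of the family itself, Txndc11 and Erp44 were nearest to its median, at 0.20 each, and P4hb the farthest, at 2.50. Eif3b, a translation initiation factor subunit, had 30.2 FPKM in control, 53.0 in model, 27.5 in silibinin and 29.8 in phloridzin livers. Arcn1, a subunit of the COPI coat that returns vesicles to the ER, had 47.1, 83.2, 45.3 and 42.8 FPKM.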

How the data were processed

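Total RNA of 12 mouse livers was made into libraries with the NEB Next Ultra kit and sequenced by the authors. Per the submitters' processing notes, reads were aligned to mm10 with HISAT2 2.1.0 and assembled with StringTie 1.3.3b after FastQC 0.11.5, and DESeq 1.28.0 was used; annotation beyond the table's identifiers is not given in the sources used here. The deposited values are FPKM per transcript (82136 Ensembl, 68303 NONCODE and 18991 assembled transcripts; the last carry neither symbol nor position and held 19.4 to 29.8% of the FPKM per liver, the most in control livers). The authors' groups come from the sample titles; no columns were identical.

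FPKM were summed per symbol. Genes with a mean of at least 0.5 over 12 livers were tested on log2(FPKM + 1) with limma 3.58.1 in R 4.3.3, with a trend in the variance, 4 groups in one fit, two-sided, and Benjamini-Hochberg adjustment over all 13158 genes; DE means adjusted p under 0.05 and a log2 fold change over 1 or under -1. Fold changes on this scale understate the change of low genes. Every p measures the spread between these livers, 3 per group. The study's own test needs counts and the deposited values are FPKM, so limma took its place. That test was not run on the recovered fragments described next. Fragments were recovered from FPKM times transcript length, with 98.4 to 98.7% of values up to 100 fragments whole within 0.05; voom was run on them as an alternative chosen after seeing the data. limma was tested on simulated data with 3 livers a group, where it called 21.3% of genes changed 2 times and 97.9% of genes changed 4 times, with 4.88% and 5.67% of its calls false. Those calls used the adjusted p alone, without the fold cutoff, on well covered genes with the same dispersion of 0.08. The simulated spread was not matched to that of the family genes, so these shares do not give the power of the DE rule for them. Promoters are from RefSeq (GRCm38.p6), coordinates from the table and GENCODE M21. Figures used Python with matplotlib.

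The 10 members and the gene lists were chosen with earlier results of these data known. The text names the 10 genes, from each list the genes DE in the model or with a drug (at most the 5 of largest log2 fold change per list and comparison), for cell types the most abundant gene and markers at or near 0, and the 8 genes of most similar profile. Serpinh1, Creb3l3, Qsox1, Txndc15, Hba-a1 and Alas2 were added after their values were seen, and Naa25, Tmem116, Canx, Dnajc3 and Hsp90b1 for their position or promoter. Alternatives were another pseudocount, other filters on low values, median-ratio scaling, fits of the 2 compared groups, a replicate block, the most abundant transcript, no fold cutoff and leaving out each liver.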

Additional observations from a re-analysis of the deposited data

Results flagged for a closer look

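Apart from the mRNA, the table lists transcripts of the NONCODE catalogue inside introns of the family genes, which the gene sums do not use. Among them, 2 were DE and higher in the model than in control livers. The one inside P4hb (NONMMUT013107.2) averaged 6.37 FPKM in the model against 2.02 in control, 1.32 in silibinin and 1.34 in phloridzin livers. The one inside Pdia3 (NONMMUT039492.2) averaged 6.55 FPKM in the model against 1.59 in control, 1.13 in silibinin and 1.06 in phloridzin livers. Beyond the search for livers under 2% of a gene's median, single livers were not tested as outliers in groups of 3.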

How the results depend on the processing

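The causes of the shifts below were not tested. Pdia3, Pdia4 and Pdia6 stayed lower than in the model and DE with both drugs under every alternative run. Depth limits Erp29 most, at 60 to 1078 fragments per liver.

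Pseudocount 0.1 gave 2 family genes DE in the model, and 2596, 702, 828 and 1103 DE genes in all for model against control, phloridzin against model, silibinin against control and phloridzin against control (1382, 463, 261 and 398 before); Erp29 in phloridzin against control was -0.01. A mean of at least 5 FPKM tests fewer genes and gave 651 for model against control, 338 and 289 for silibinin and phloridzin against model, 0 between the drugs, and 109 and 157 for silibinin and phloridzin against control. Median-ratio scaling gave 0 family genes DE in the model and 249 genes in phloridzin against control. Under it Pdia5 was -0.31 and Tmx1 -0.24 in the model, Tmx1 was 0.10 and 0.09 with silibinin and phloridzin against model, -0.01 between the drugs, and -0.14 and -0.15 against control, Erp44 was -0.09 and -0.22 against control, and Erp29 was -0.16 in phloridzin against control. Fits of the 2 compared groups gave 0 genes between the drugs and 143 in phloridzin against control. The most abundant transcript gave 5 genes between the drugs and 117 and 190 for silibinin and phloridzin against control, with Erp29 at -0.39 and Erp44 at -0.01 in phloridzin against control. Without a fold cutoff the family counts were 5 in the model, 6 and 5 with silibinin and phloridzin, and 1 and 1 for the drugs against control, and over all genes 4594, 1849, 1691, 661 and 1051. Voom on recovered fragments, chosen after seeing the data, gave 2535, 795, 688 and 937 genes for model against control, silibinin against model, silibinin against control and phloridzin against control, and Erp29 at -0.55 in phloridzin against control. Sums over Ensembl transcripts are the same sums, since only these carry a symbol.

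Leaving out each liver gave 1 to 3 family genes DE in the model, and 3 or 4 with either drug against the model. Over all genes it gave 101 to 381 in silibinin against control, 214 to 635 in phloridzin against control and 1 to 6 between the drugs. Log2 fold changes ranged from -0.08 to 0.29 for Pdia5 in the model and from -0.57 to 0.04 for Txndc5 in silibinin against model. P4hb ranged from -0.09 to 3.46 in silibinin and -0.26 to 3.28 in phloridzin against control, both lowest without control replicate 3. In phloridzin against control Txndc5 ranged from -0.38 to 0.35, Erp29 from -0.16 to 0.23 and Erp44 from -0.03 to 0.11. Between the drugs Pdia3 ranged from -0.15 to 0.04, Pdia6 from -0.35 to 0.03 and Tmx1 from -0.08 to 0.09.

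Groups share sample numbers, but livers of the same number did not deviate together: the correlation of their deviations was -0.09 to 0.10 over 18 pairs, 1 of them over 0.1, and 2 of 12 livers correlated best with their own number. With the replicate block the family counts were 1 in the model, 4 with silibinin, 3 with phloridzin and 0 in the other comparisons. No DE call of a family gene changed. Pdia4 in silibinin against control no longer passed the adjusted p, while its value stayed at -0.56. Calls at the adjusted p that other alternatives changed are given with the genes above, apart from Erp29 in the model (0.56), which passed in the fit of the 2 compared groups.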
